A study of Mus musculus with 6 samples.

Results

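The 10 genes described here flank Ikzf4 on mouse chromosome 10 and were followed in T helper 2 (Th2) cultures with and without Ikzf4: Suox, Itga7, Esyt1, Rab5b, Cdk2, Pa2g4, Dgka, Zc3h10, Ormdl2 and Stat2. They were taken by symbol from the deposited table, which held a row for each of the 10 among 14868 genes, and Ikzf4 itself is shown as a reference. They were chosen by position around Ikzf4 with their fold changes between the genotypes already known, Suox and Itga7 being among the genes of lowest fold change, so the differences are given below as a description, without p-values. Naïve CD4+ T cells, the resting precursors of helper T cells, came from wild-type (WT) or Ikzf4-/- mice, both labelled C57BL/6J. Both groups received the same treatment: plate-bound anti-CD3 (5 µg/mL) and anti-CD28 (2 µg/mL), which stimulate T cells, with anti-Ifng (10 µg/mL) and IL-4 (10 ng/mL), for 72 h. There were 3 libraries of total RNA per genotype. Which exons the Ikzf4-/- allele removes, how it was made, and whether the libraries came from separate mice are not given in the sources used here, so the spread between libraries may be partly technical.

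Ikzf4 encodes Eos, a zinc finger transcription factor of the Ikaros family that is best known as a repressor in regulatory T cells. In humans the block of genes around IKZF4 is an association locus for autoimmune diseases such as type 1 diabetes and alopecia areata, and several of its genes, SUOX and RAB5B among them, have been discussed as candidates beside IKZF4. The mouse block keeps largely the same neighbours. The genes in it do unrelated work: sulfite detoxification (Suox), cell adhesion (Itga7), lipid transfer between membranes (Esyt1), lipid signalling (Dgka), endosome traffic (Rab5b), sphingolipid control (Ormdl2), the cell cycle (Cdk2), growth and ribosome assembly (Pa2g4), RNA binding (Zc3h10) and interferon signalling (Stat2).

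On GRCm38, Ikzf4 (ENSMUSG00000002578) spans chr10:128630843-128645991 on the minus strand. On the side of higher coordinates, which is upstream of the Ikzf4 start, followed Suox at a gap of 23.9 kb, Rab5b at 31.2 kb, Cdk2 at 51.9 kb, Dgka at 74.1 kb, Ormdl2 at 171.9 kb and Itga7 at 287.8 kb. On the other side lay Pa2g4 at 64.9 kb, Zc3h10 at 83.1 kb, Esyt1 at 105.0 kb and Stat2 at 338.0 kb. Itga7 and Stat2 lie on the plus strand and the other 8 on the minus strand, as Ikzf4 does. From the 5′ edge of Ikzf4 to Suox the annotation places the long noncoding RNA genes Gm26876 and Gm49782, neither of which had a row in the table.

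The stretch before the start of Suox is shown because Suox had the widest gap between genotypes of the 10 genes. It is set beside those of Rab5b, the next gene along on the same strand, which differed little, and of Esyt1, another member with lower values in Ikzf4-/- libraries. The sequences are from RefSeq on GRCm38.p6, minus strand, read 5′ to 3′, and each stops before the first annotated exon, at chr10:128674074-128674168 for Suox, chr10:128696269-128696518 for Rab5b and chr10:128525872-128526109 for Esyt1. Capitals mark GGGAA or its reverse complement TTCCC, the core letters that Ikaros-family zinc fingers recognise.
Suox: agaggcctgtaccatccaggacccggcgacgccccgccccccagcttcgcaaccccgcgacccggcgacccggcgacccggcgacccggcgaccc
Rab5b: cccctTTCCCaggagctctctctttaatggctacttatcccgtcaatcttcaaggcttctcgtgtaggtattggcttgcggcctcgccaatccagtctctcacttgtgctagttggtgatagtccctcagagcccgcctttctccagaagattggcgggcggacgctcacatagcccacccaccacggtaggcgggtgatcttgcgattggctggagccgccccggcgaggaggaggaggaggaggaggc
Esyt1: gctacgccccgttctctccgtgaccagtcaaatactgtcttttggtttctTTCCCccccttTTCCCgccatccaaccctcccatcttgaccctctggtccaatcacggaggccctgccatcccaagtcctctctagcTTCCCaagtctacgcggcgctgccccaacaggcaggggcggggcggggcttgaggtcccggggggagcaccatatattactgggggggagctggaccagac

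No GGGAA on either strand lay in the 250 bases before the RefSeq start of Suox, against 1 match for Rab5b and 3 for Esyt1. RefSeq windows were found for 9 of the 10 members, 12 windows in all because Dgka has 4. At least 1 match was present in a window of 7 of these 9 genes, Suox and Zc3h10 being without one. This counts genes, so Dgka entered with 4 windows, of which only window 2 held a match. Cdk2 had 4 matches, 0 of them in the 17 bases before the first annotated exon. The motif was present in 56.2% of all 32851 mouse windows of this length, a share by window that cannot be set against the count by gene. Its presence is common, and a lack of it says only that these letters are not in this window. The Suox stretch holds 4 copies in a row of the 8-base unit gacccggc, a feature picked out after the sequence was seen, and 1 of the 32851 windows, that of Suox, had 2 or more in a row. The 250 bases before the Suox start were 74.4% G or C, and those of Rab5b 59.2% and Esyt1 61.6%. These windows are not alike, since the stretch before the first annotated exon was 95 bases for Suox, 250 for Rab5b and 238 for Esyt1. The rest of the Suox and Esyt1 windows runs from that exon to the RefSeq start.

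Ikzf4 was examined first because it checks the labels. Its normalized read count, that is, reads after the authors' scaling of each library, stood at 756, 499.6 and 483 in WT replicates 1 to 3 and at 25.2, 10.5 and 38.2 in Ikzf4-/- replicates 1 to 3, the order in which library values are given throughout. Every Ikzf4-/- library lay far under every WT library, and the remaining reads cannot be placed on exons from gene totals. Normalized counts summed to between 36104061 and 37374946 per library. Sets of 7 T cell marker genes (Cd3e, Cd4, Lck and others) and 5 Th2 genes (Gata3, Il4 and others) were detected in all 6 libraries, while the myeloid markers, Ms4a1 of B cells, Ncr1 and Klrb1c of NK cells and the hemoglobin genes had no row. Other markers of these cells were detected at low levels: Cd79a at 17.0 to 51.2 and Cd79b at 24.1 to 54.5 (B cells), Eomes at 149 to 299 (NK cells, also made by some T cells), Cd8a and Cd8b1 summing to 232 to 423, and 2 of 4 stromal markers (Col1a1 and Pdgfrb) summing to 139 to 159. The T cell markers summed to 95677 to 98834 in WT and 98654 to 101753 in Ikzf4-/- libraries. The Th2 set summed to 23373 to 32857 and 16315 to 19482. The 4 Y-linked genes examined were expressed in every library, and Xist was at 0.971 to 4.26 in WT and at 2.02, 85.8 and 111 in Ikzf4-/- replicates 1 to 3. The part of these library differences in the values below was not tested.

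Suox encodes sulfite oxidase, the mitochondrial enzyme that turns toxic sulfite, which arises in sulfur amino acid breakdown, into sulfate. Suox (ENSMUSG00000049858) lies at chr10:128669894-128674073. Suox was at 792, 776 and 784 normalized reads in WT and at 103, 108 and 97.4 in Ikzf4-/- libraries. The 2 genotypes were separated by a wide empty interval, and the libraries within each genotype nearly coincided. The Ikzf4-/- mean was 13.1% of the WT mean, so Suox transcripts were reduced 7.63-fold in the means but still present in every library. In bulk RNA, fewer expressing cells and less RNA per cell cannot be told apart. The log2 fold change was -2.92 (SE 0.10), which ranked 2 from the lowest among 14864 genes fitted, next to Ikzf4 itself at -4.64 (SE 0.37). Leaving out each library in turn gave -2.96 to -2.88.

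The closeness of the Suox replicates is given as a description. The genes were picked with the contrast known, so it may have entered their choice, and a coefficient from 3 libraries is itself uncertain. In WT its coefficient of variation was 1.00%, and 1.39% of the 2093 genes with a WT mean within 1.5-fold of that of Suox had a lower one, their median being 6.40%. In Ikzf4-/- libraries its coefficient was 5.06%, against a median of 14.7% for 1149 genes of like level. Ikzf4 itself was far less even in WT, at 26.4%, a value higher than that of 96.9% of genes of like level. WT replicate 1 held the most of both genes, but Ikzf4 was at 756 there against 499.6 and 483, while Suox stayed within 776 to 792. Over all 6 libraries, both genotypes included, the Pearson correlation of log2(value + 1) between Ikzf4 and Suox was 0.966. A link between their levels was not tested.

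Itga7 encodes the integrin alpha 7 chain, which pairs with beta 1 to bind laminin and is best known from skeletal muscle. Itga7 (ENSMUSG00000025348, chr10:128933818-128958282, plus strand) was the most distant gene with a row within 1 Mb on its side of Ikzf4. Itga7 was at 299, 95.2 and 67.9 normalized reads in WT and at 21.2, 37.7 and 19.1 in Ikzf4-/- libraries. The genotypes did not overlap, but WT replicate 1 was far above both other WT libraries. The mean was 154 ± 126 (SD, n = 3) in WT and 26.0 ± 10.2 (SD, n = 3) in Ikzf4-/-. The log2 fold change of -2.28 (SE 0.48) ranked 8 from the lowest. It was -1.66 without WT replicate 1, and -2.57 in the authors' deposited table, which was fitted on another scale. The WT coefficient of variation of 82.0% was higher than that of 99.7% of 1093 genes of like level, so in WT Itga7 and Suox stood at opposite ends of replicate spread. In Ikzf4-/- libraries the coefficient of Itga7 was 39.2%, higher than that of 75.4% of 1558 genes of like level.

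Esyt1 encodes extended synaptotagmin 1, which tethers the endoplasmic reticulum to the plasma membrane and moves lipids between them. Esyt1 (ENSMUSG00000025366, chr10:128509965-128525871) was at 17828, 16526 and 15685 in WT and at 13769, 13438 and 13436 in Ikzf4-/- libraries. All 3 Ikzf4-/- libraries were below the lowest WT library and close to each other. The difference was small beside those of Suox and Itga7, a log2 fold change of -0.30 (SE 0.05), or 81.2% of the WT mean. An antisense gene, Gm29585, overlaps 5.79% of the exonic bases of Esyt1. Use of strand in the counting is not given in the sources used here, so reads of the overlap cannot be told apart.

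Stat2 encodes a signal transducer that carries type I interferon signals to the nucleus. Stat2 (ENSMUSG00000040033, chr10:128270559-128292849, plus strand) was at 1155, 1085 and 1085 in WT and at 960.4, 1010.3 and 923 in Ikzf4-/- libraries. The genotypes did not overlap, with a log2 fold change of -0.20 (SE 0.07). Rab5b, a small GTPase of early endosomes (ENSMUSG00000000711, chr10:128677175-128696264), was at 2876, 2962 and 3029.9 in WT and at 2678, 2649.7 and 2696 in Ikzf4-/- libraries. These also did not overlap, although the log2 fold change was only -0.14 (SE 0.05). Rab5b lies on the far side of Suox from Ikzf4, and its Ikzf4-/- mean was 90.5% of that in WT where the mean of Suox was 13.1%.

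Zc3h10 and Cdk2 overlapped between genotypes. Zc3h10, a zinc finger RNA-binding protein (ENSMUSG00000039810, chr10:128541963-128547774), was at 1185, 1138 and 1295 in WT and at 909.9, 1056 and 1177 in Ikzf4-/- libraries, a log2 fold change of -0.21 (SE 0.09). It was the least even member in Ikzf4-/- libraries after Itga7, with a coefficient of variation of 12.8%, and 11.6% of its exonic bases also overlap Gm29585. Cdk2, the kinase that drives entry into DNA synthesis with cyclins E and A (ENSMUSG00000025358, chr10:128697939-128705031), was at 4381, 4197 and 4105 in WT and at 3979.7, 4132 and 3681 in Ikzf4-/- libraries, a log2 fold change of -0.11 (SE 0.05).

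Dgka was the one member with all Ikzf4-/- libraries above all WT libraries. It encodes diacylglycerol kinase alpha, which removes the diacylglycerol made by T cell receptor signalling and thereby dampens it. Dgka (ENSMUSG00000025357, chr10:128720134-128744855) was at 11500.3, 12323 and 12389 in WT and at 12951, 13057 and 12711 in Ikzf4-/- libraries. The log2 fold change was 0.10 (SE 0.04), from 0.06 to 0.12 when single libraries were left out.

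The genotype means of Pa2g4 and of Ormdl2 differed by less than 1 SD. Pa2g4, also called Ebp1, a growth regulator that associates with ribosomes (ENSMUSG00000025364, chr10:128557766-128565987), was at 17156, 15945 and 17701 in WT and at 17578, 16017 and 16619 in Ikzf4-/- libraries. Its log2 fold change of -0.02 (SE 0.05) turned to 0.03 with quantile scaling and 0.01 with equal library totals. Ormdl2, a brake on the first enzyme of sphingolipid synthesis (ENSMUSG00000025353, chr10:128817902-128821645), was at 1171, 1061 and 1187 in WT and at 1219.6, 1165 and 1078 in Ikzf4-/- libraries, a log2 fold change of 0.02 (SE 0.07). Its value is uncertain, since 66.7% of its exonic bases overlap Dnajc14 on the opposite strand.

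**Figure D1:**
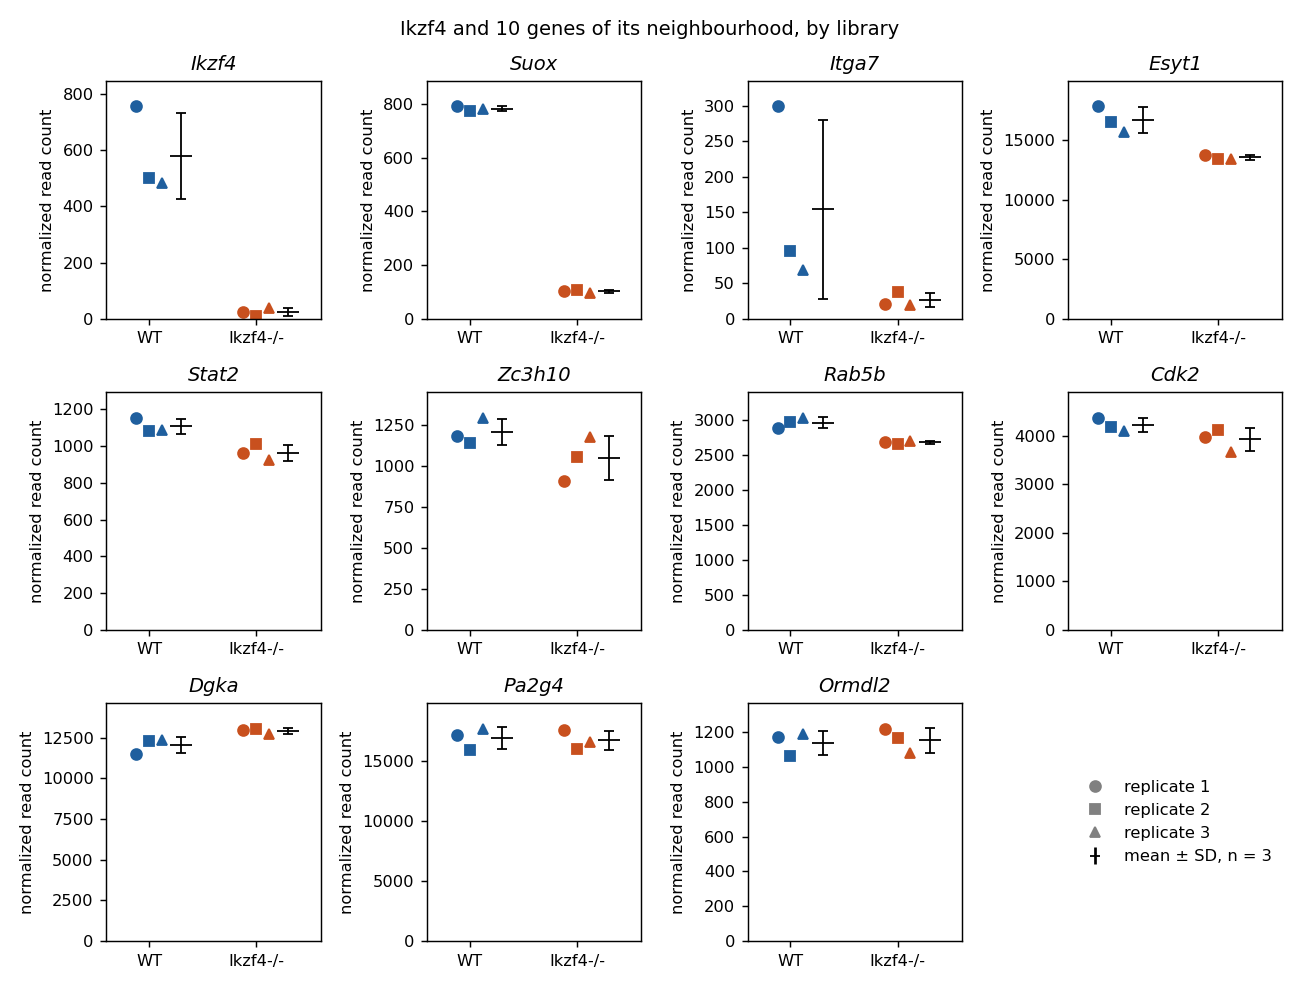
Normalized read count of Ikzf4 and the 10 members in each library, each panel from 0 on its own linear axis, with blue points for WT, orange for Ikzf4-/-, marker shape for the replicate number and black bars for mean ± SD (n = 3). The Suox points form tight groups at 776 to 792 and 97.4 to 108, while WT replicate 1 of Itga7, at 299, stands apart.

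Counted together, 8 of the 10 members had a negative log2 fold change and 2 a positive one, with a median of -0.17, against a median of 0.00479 over all 14864 genes fitted. Libraries did not overlap between genotypes for 6 members, 5 lower (Suox, Itga7, Esyt1, Stat2 and Rab5b) and 1 higher (Dgka), where the background was 23.1% of all genes (12.2% lower, 11.0% higher). In limma's test on log2(value + 1), with Benjamini-Hochberg adjustment over all genes and a threshold of 0.05, 3 members were called, all lower (Suox, Itga7 and Esyt1), against 1.77% of all genes (1.2% lower, 0.572% higher). Because these genes were picked with this contrast known, nothing is read from these counts. The authors' deposited table had the same 3 under an adjusted p of 0.05, against 6.34% of its genes. Suox kept its call whichever library was left out. Itga7 and Esyt1 were not called without WT replicate 2 or without Ikzf4-/- replicate 1, 2 or 3. Of these 3, Esyt1 had the smallest difference, at -0.30, and the next lowest members, not called, were Zc3h10 at -0.21 and Stat2 at -0.20.

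Other genes around Ikzf4 are given beside these values. They are what was left of the window once the members, picked with the contrast known, were set apart, so their count of calls was shaped by that choice. Of 143 genes annotated within 1 Mb of the Ikzf4 gene body, 57 had a row, the 10 members and 47 others. The whole window had 3 of 57 genes called by limma at an adjusted p under 0.05, the 3 members above, and 9 at an unadjusted p under 0.05, against 18.1% of all genes at the latter threshold. The 47 others had 0 called by limma and 3 at an unadjusted p under 0.05, and 1 was under an adjusted 0.05 in the authors' deposited table. Their log2 fold changes were split into 23 lower and 24 higher with a median of 0.000900, and the median absolute value was 0.08, against 0.11 over all genes. In rings around Ikzf4 with members included, limma called 1 of 11 genes within 0.1 Mb (Suox), 2 of 32 from 0.1 to 0.5 Mb (Esyt1 and Itga7) and 0 of 14 from 0.5 to 1 Mb, with unadjusted counts of 3, 6 and 0. On the rest of chromosome 10, 9 of 641 genes were called, or 1.40%, close to the 1.77% over all genes.

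The nearest genes on the 2 sides differed in size of change. Rps26, a protein of the small ribosomal subunit that lies only 4.10 kb downstream of Ikzf4, differed by -0.08 on the log2 scale (SE 0.06, limma adjusted p = 0.526). Erbb3, a growth factor receptor gene 41.2 kb away on that side, was at 326, 318 and 324 in WT and at 306, 259 and 273 in Ikzf4-/- libraries, which differed by -0.21 on that scale (limma adjusted p = 0.334). Pa2g4 came next on that side at -0.02. On the Suox side the first 3 genes were Suox, Rab5b and Cdk2, at -2.92, -0.14 and -0.11. The difference was far larger at Suox than at the closer Rps26, and large again at Itga7, beyond Rab5b, Cdk2, Dgka and Ormdl2. Suox and Itga7 were picked with their fold changes known, so nothing on distance is read from this order.

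Cd63, named after its values were seen, was the one other gene under 0.05 in the authors' deposited table, with an adjusted p of 0.0394 and a log2 fold change of -0.88. It encodes a tetraspanin of late endosomes and is the third gene from Itga7 with a row. Cd63 was at 90.5, 111 and 76.7 normalized reads in WT and at 53.5, 58.6 and 39.2 in Ikzf4-/- libraries. The genotypes did not overlap, and limma's adjusted p was 0.0862 (log2 fold change -0.87, SE 0.24).

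**Figure D2:**
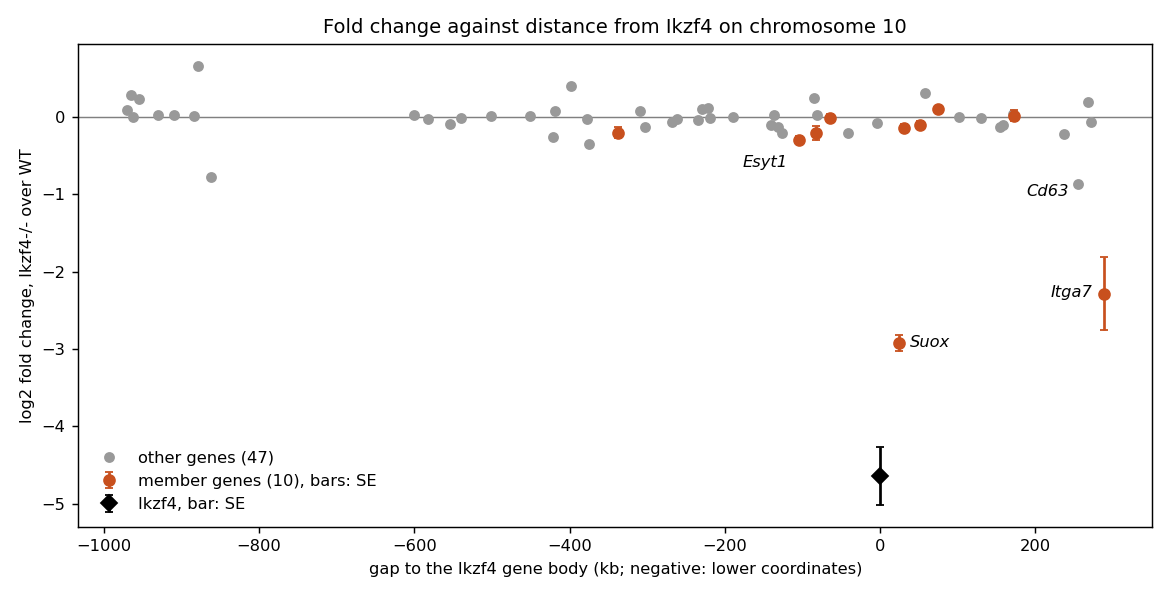
Log2 fold change, Ikzf4-/- over WT, of the 57 genes with a row within 1 Mb of Ikzf4, against the gap in kb to the Ikzf4 gene body, with members in orange, other genes in grey, Ikzf4 as a black diamond and bars for SE. Suox at -2.92 and Itga7 at -2.28 stand below a band of genes near 0, of which Cd63, at -0.87, is the lowest.

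Levels were compared between genes only after division by merged exon length, which gives normalized reads per kb. In WT, Pa2g4 led at 6039 ± 321 per kb, then Dgka at 2535 ± 104 and Esyt1 at 2295 ± 149 (SD, n = 3 each), the last pair overlapping within 1 SD. Rab5b at 704 ± 18.3, Ormdl2 at 682 ± 41.0 and Cdk2 at 679.8 ± 22.5 could not be told apart beyond their spread. Suox followed at 314 ± 3.14, Zc3h10 at 275 ± 18.4 and Stat2 at 187 ± 6.84. Ikzf4, at 96.7 ± 25.5, and Itga7, at 19.0 ± 15.6, were the lowest. In Ikzf4-/- libraries Suox dropped to 41.1 ± 2.08 per kb, below Stat2 at 163 ± 7.37, and the other 9 members kept their WT order except that Ormdl2, at 691 ± 42.8, came before Rab5b, at 637 ± 5.60. Within this block, Ikzf4 included, Suox therefore ranked 7 per kb in WT, above Ikzf4, while Itga7 was near the bottom in both genotypes. Levels per kb were not ranked over all genes.

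**Figure D3:**
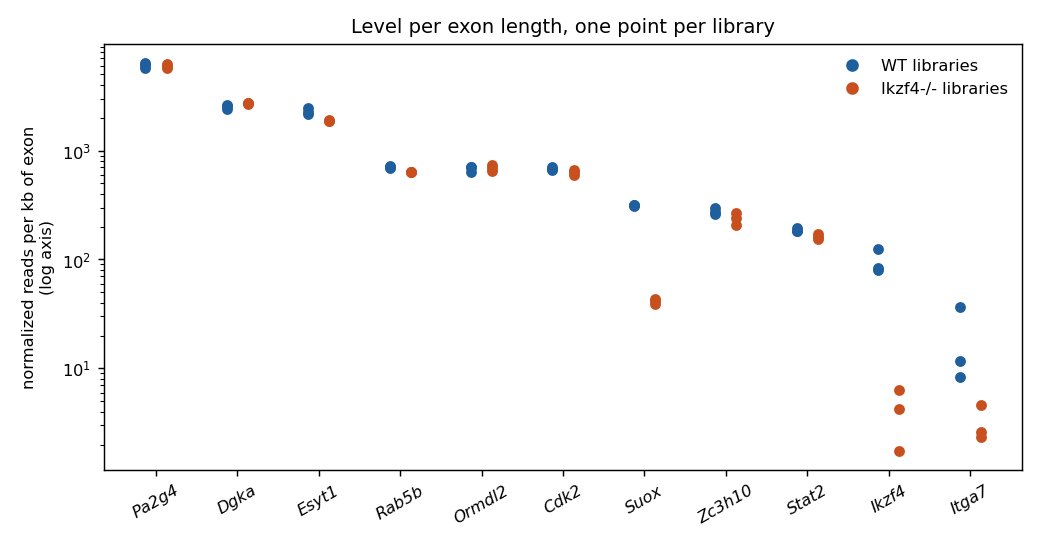
Normalized reads per kb of merged exon on a log axis, 1 point per library, for Ikzf4 and the 10 members ordered by WT mean, with WT in blue and Ikzf4-/- in orange. Blue and orange part widely for Suox (314 against 41.1 in the means), Ikzf4 and Itga7 and lie close for the rest.

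Partner genes of each member, listed from general knowledge, were examined beside the members. Of 61 listed genes 58 were fitted, with 24 lower, 34 higher, a median log2 fold change of 0.02 and 1 called by limma, or 1.72%, against 1.77% of all genes. At an unadjusted p under 0.05 there were 7, where the background was 18.1%, and 4 of 54 were under an adjusted p of 0.05 in the authors' deposited table, where it was 6.34%. Libraries did not overlap between genotypes for 4 lower and 6 higher partners of the 58, where the background was 12.2% lower and 11.0% higher. Medians of the 9 lists ran from -0.20 to 0.19 on the log2 scale.

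Around Suox, 13 of 14 genes of sulfite and sulfur amino acid metabolism were fitted and limma called 0, with 2 at an unadjusted p under 0.05 and 1 under an adjusted 0.05 in the authors' deposited table. Gphn, Mocs1, Mocs2 and Mocs3 make the molybdenum cofactor that sulfite oxidase needs, and their log2 fold changes were -0.05, 0.05, 0.14 and -0.22 (limma adjusted p = 0.753, 0.781, 0.366 and 0.125). The transaminases Got1 and Got2, which act just before sulfite is released, had -0.07 and -0.02. Cth, which makes cysteine, was named after its values were seen. It was at 291, 314 and 336 in WT and 549, 410.4 and 431 in Ikzf4-/- libraries, higher without overlap. Of the 13 fitted genes, 2 were higher without overlap (Cth and Mocs2) and 2 lower (Mocs3 and Mpst). Mpst was likewise named after its values were seen. Over all genes 23.1% did not overlap. Cth is described further. Its log2 fold change was 0.55 (limma adjusted p = 0.0537, and 0.00311 in the authors' deposited table).

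Around Itga7, limma called 0 of 5 fitted genes of laminin integrins and matrix, with 1 at an unadjusted p under 0.05 and 1 in the authors' deposited table. The gene under the threshold in the authors' deposited table was its beta chain partner Itgb1, with an adjusted p of 0.0226 there. Itgb1 was lower without overlap, at -0.20 on the log2 scale (limma adjusted p = 0.0862). The laminin chain Lamc1 was at 0.06 and the laminin-binding alpha chain Itga3 at -0.22 (limma adjusted p = 0.680 and 0.598). Itgb4, the laminin-binding beta 4 chain, named after its values were seen, was at 26.6, 13.5 and 37.8 in WT and at 18.2, 18.8 and 9.04 in Ikzf4-/- libraries, which overlapped, at -0.67 (SE 0.45, limma adjusted p = 0.474). In all, 4 of the 5 had a negative log2 fold change, with a median of -0.20. Around Stat2, limma called 0 of 6 interferon signalling genes, with 0 at an unadjusted p under 0.05 and 0 in the authors' deposited table. Jak1 was at 0.03, the receptor chain Ifnar1 at 0.16 and the kinase Tyk2 at -0.04.

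Around Dgka, 8 of 9 other diacylglycerol kinases were fitted and 1 was called, Dgki, which rose in Ikzf4-/- libraries. Its mean went from 281 in WT to 420.0, a log2 difference of 0.58 (SE 0.12, limma adjusted p = 0.0403). Of the 6 fits that left out a library, Dgki was called only in that without WT replicate 1. Its limma adjusted p without another library ran from 0.0506 to 0.137. Dgkz, the other abundant T cell kinase of this family, had 0.03, Dgkd 0.03 and Dgke -0.04.

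In the remaining lists limma called 0 genes. Among 8 cell cycle genes with Cdk2 there was 1 at an unadjusted p under 0.05 and 0 in the authors' deposited table, and Ccna2, Cdk1 and Cdc25a were at 0.01, 0.00449 and -0.06. The gene under the unadjusted threshold, named after its values were seen, was Cdkn1a, which encodes the Cdk2 inhibitor p21. Cdkn1a was at 2180.2, 2686 and 3608 in WT and 3611 to 4419 in Ikzf4-/- libraries, with no overlap but nearly touching, at 0.54 (limma adjusted p = 0.0862). Among 6 endosome genes with Rab5b the counts were 1 and 1, and the paralogs Rab5a and Rab5c were at 0.02 and -0.07. The gene in both counts was the tether Eea1, higher without overlap, at 0.31. Its adjusted p was 0.0588 by limma and 0.00227 in the authors' deposited table. Among 6 sphingolipid genes with Ormdl2 the counts were 1 and 0, and the synthase subunits Sptlc1, Sptlc2 and Sptssa were at 0.00133, -0.03 and 0.04. Kdsr, the next enzyme of that pathway and likewise named after its values were seen, was at 544 to 589 in WT and 672 to 696 in Ikzf4-/- libraries, without overlap, at 0.25 (limma adjusted p = 0.121). Esyt2, the paralog of Esyt1, was at 0.05, and Esyt3 at 0.32 with a low count of 11.2 in WT and 15.2 in Ikzf4-/- means. The nucleolar proteins Ncl, Npm1 and Fbl, listed with Pa2g4, were at 0.01, 0.07 and 0.07. In both of these last lists the counts were 0 and 0. Rps26 and Npm1 have processed pseudogenes, and how shared reads were counted is not given in the sources used here, so their values are uncertain.

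**Figure D4:**
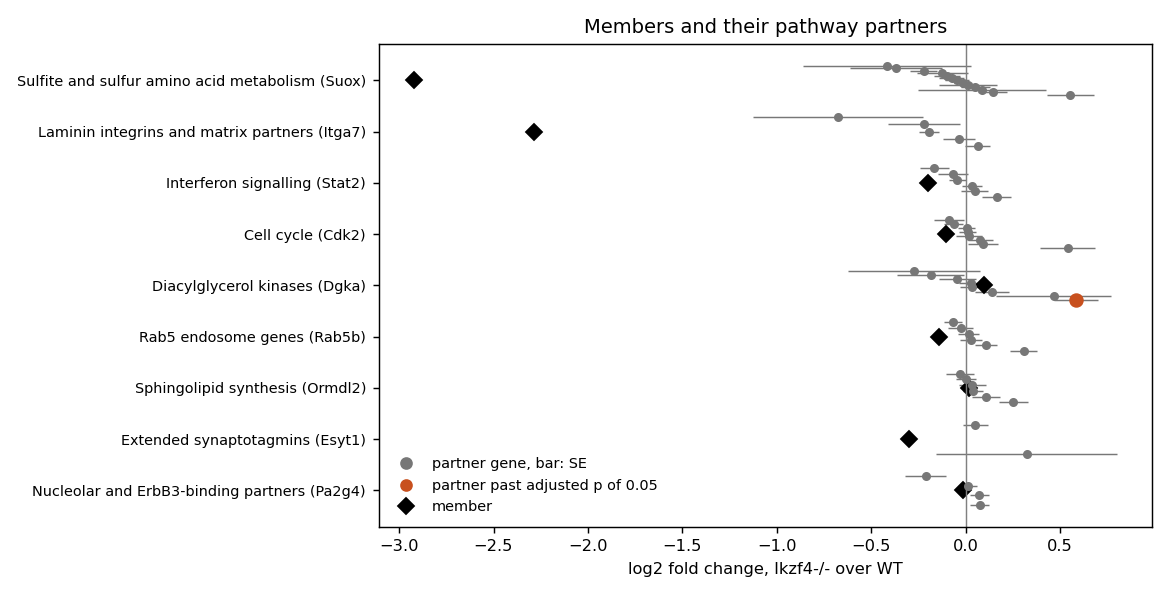
Log2 fold change, Ikzf4-/- over WT, of 58 partner genes (grey points, bars for SE) by list, with the member of each list as a black diamond and the called partner, Dgki at 0.58, in orange. The diamonds of Suox and Itga7 lie far to the left of their partners, whose medians are -0.05 and -0.20. Both were picked with their low fold changes known, so nothing is read from this gap.

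Genes with the profile most like that of Suox over the 6 libraries were sought among 11599 genes with a mean of at least 50, by Pearson correlation of log2(value + 1), given as a description. The closest were Slc35b2 (r = 0.994), Psmc4 (0.992) and Ano8 (0.992), on chromosomes 17, 7 and 8. Each was even within genotypes and lower in Ikzf4-/- libraries, but by far less than Suox, with log2 fold changes of -0.21, -0.12 and -0.21. For Itga7 the closest were Nfil3 (0.997), Chmp4b (0.996) and H2-DMa (0.995), on chromosomes 13, 2 and 17. These shared with Itga7 a top value in WT replicate 1: Nfil3 was at 5378, 3971 and 3545 in WT and at 2533, 2869.6 and 2526 in Ikzf4-/- libraries. Itga7 and Suox correlated less closely, at 0.858. All these values share the same 6 libraries and their 2 genotypes.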

How the data were processed

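Total RNA of 3 WT and 3 Ikzf4-/- Th2 cultures was sequenced. Per the submitters' processing notes, Trimmomatic 0.36, STAR 2.5.2b and DESeq2 were used with GRCm38; the counting tool, annotation and use of strand are not given in the sources used here. The deposited sample columns hold a never-negative signal, read as normalized read counts. The authors' log2 fold changes and adjusted p-values stand in the same deposited table and are named where printed. The log2 of each value plus 1 was taken, and the 14864 genes whose mean reached 10 were fitted with genotype as the only term in limma 3.58.1 (R 4.3.3, trended variance, two-sided, Benjamini-Hochberg). Fold changes on this scale understate low genes. The procedure was tested on simulated data. Positions and exon lengths are from GENCODE M21 (GRCm38), matched by identifier for 14836 genes; sequences are from RefSeq windows of 250 bases before each start.

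The members and lists were chosen with earlier results of these data known. Named genes were the members, Ikzf4, the 3 nearest genes on each side, called neighbours and partners, the highest partners of each list, and the 3 profiles most like Suox and Itga7. Also named were Mocs1, Mocs2 and Mocs3 beside Gphn, and the genes marked as named after their values were seen. Replicates of a genotype differed by more than sampling noise (mean squared difference over sum of 7.47 to 19.4 per gene). Alternatives were scaling, filters, pseudocounts, a replicate block, leaving out libraries, a stricter threshold and the authors' values.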

Additional observations from a re-analysis of the deposited data

How the results depend on the processing

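The 3 called members, the 0 other genes within 1 Mb and the 1 called partner kept these counts with pseudocounts of 0.1 or 10, without a filter, with at least 10 required in every library, and with upper quartile or quantile scaling; equal library totals added a second partner, Cth, for 2. All genes called numbered 263. Leaving out each library gave 20 to 523 genes, 1 to 3 members, 0 to 0 other neighbours and 0 to 3 partners. A threshold of 0.01 left 16 genes, 1 member and 0 partners. The authors' deposited values gave 815 genes, 1 other neighbour (Cd63) and 4 partners. The replicate block gave 754 genes, the same 3 members, 1 other neighbour (Cd63) and 5 partners. Deviations of same-numbered libraries correlated at 0.145, 0.0122 and 0.142. WT replicates 1 and 3 correlated best with the Ikzf4-/- library of their own number, and WT replicate 2 with Ikzf4-/- replicate 3, at 0.0491. These values do not settle whether the libraries were paired, and the main fit treated them as unpaired. For single genes, 204 values under alternatives stayed within their spread or on their side of the threshold. A further 1 moved (Suox, -2.82 with a pseudocount of 10) and 5 lost a call (Dgki). A member counted as moved when its shift exceeded its own spread between libraries, 0.05 for Suox and 0.87 for Itga7 on the log2 scale. The larger shift of Itga7, to -1.66 without WT replicate 1, was therefore counted among those that stayed. A larger pseudocount shrinks a log2 fold change by construction. Why Dgki lost its calls was not tested. Members and Ikzf4 entered this tally by fold change alone, so the calls that Itga7 and Esyt1 lost when single libraries were left out are not in it. With 3 libraries a genotype, small differences such as those of Cdk2 and Zc3h10 were not resolved.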
